A study of Mus musculus with 24 samples.

Results

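Layn, Popdc3, Cd24a and Susd2 are 4 of the 38924 genes counted in whole spinal cord of mice that carry a mutant glycyl-tRNA synthetase gene (Gars) together with 0, 1 or 2 intact copies of Gcn2. They were chosen from these data, as genes with lower counts in Gars mutants that have Gcn2, or with higher counts in Gars mutants that have lost it. All 4 passed the filter on low counts that left 17409 genes for testing. The choice compared all 6 genotypes, so the differences of the 4 genes between Gars mutants and wild types at each Gcn2 genotype, and between Gcn2 genotypes, are given as a description with no test. Tests are given for other genes and for the difference between the sexes.

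The study measured poly(A) RNA in the spinal cord of 24 mice aged 8 weeks, 13 male and 11 female, labelled with the strain background B6J;CASTxB6.129. The groups were Gcn2-/-;GarsP278KY/+ (5 mice), Gcn2+/-;GarsP278KY/+ (4), Gcn2+/+;GarsP278KY/+ (4), Gcn2-/-;Gars+/+ (3), Gcn2+/-;Gars+/+ (4) and Gcn2+/+;Gars+/+ (4). GarsP278KY/+ mice, with 1 mutant and 1 wild-type Gars copy, are called Gars mutants below, and Gars+/+ mice are called Gars wild types. The question of the design is how the response of the cord to mutant Gars depends on Gcn2. The labels give no other agent or allele, and every library is a whole cord, so no cell type was isolated. In such bulk tissue, fewer cells of a type and less RNA per cell cannot be told apart.

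The enzyme made from Gars attaches glycine to its tRNA, and dominant mutations in it lead to a form of Charcot-Marie-Tooth disease, an inherited loss of function in motor and sensory axons. Gcn2, encoded by Eif2ak4, is a kinase that responds to uncharged tRNA and stalled ribosomes and starts the integrated stress response, in which the transcription factor ATF4 is translated more. The 4 genes encode cell surface proteins from unrelated families. Layilin (Layn) is a membrane receptor with a C-type lectin domain that binds hyaluronan outside the cell and talin inside it. Its relative chondrolectin (Chodl) is a marker of fast motor neurons. Popdc3 belongs to the Popeye domain family, membrane proteins that bind cAMP and are best known from heart and skeletal muscle. Cd24a encodes the small, heavily glycosylated CD24 protein, held in the membrane by a lipid anchor and known from immature neurons and lymphocytes. Susd2 encodes a membrane protein with a sushi domain.

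Positions are those of GENCODE M21 on GRCm38, since the build behind the files is not given in the sources used here. Layn (ENSMUSG00000060594) lies on the minus strand of chromosome 9, from 51054640 to 51077094, with 8 exons in its longest transcript. The other 3 genes share chromosome 10. Cd24a (ENSMUSG00000047139, plus strand, 43578284 to 43584265) has 2 exons, and Popdc3 (ENSMUSG00000019848, plus strand, 45178098 to 45318452) lies 1.59 Mb from it. Susd2 (ENSMUSG00000006342, minus strand, 75636706 to 75644008) has 15 exons and lies 30.3 Mb beyond Popdc3. Layn overlaps Btg4 on the opposite strand, and Btg4 held 4 counts over all libraries against 4288 for Layn. Popdc3 overlaps the antisense gene Gm15934, which held 2 counts against 1561 for Popdc3. The expected counts of all 4 genes were whole numbers in 24 of 24 libraries, to within 0.005.

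Of the 4 genes, Layn matched an entry in the table of promoters used here. Its promoter is shown as the only one of the 4 found there. ATF4 and its partners bind variants of the cAMP response element, and whether they act on Layn was not tested. The sequence is from RefSeq (GRCm38.p6), chr9:51077045-51077344, minus strand, written 5′ to 3′, and the capitals mark the only match to TGACGT, which lies 58 bases before the annotated start.

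Layn promoter: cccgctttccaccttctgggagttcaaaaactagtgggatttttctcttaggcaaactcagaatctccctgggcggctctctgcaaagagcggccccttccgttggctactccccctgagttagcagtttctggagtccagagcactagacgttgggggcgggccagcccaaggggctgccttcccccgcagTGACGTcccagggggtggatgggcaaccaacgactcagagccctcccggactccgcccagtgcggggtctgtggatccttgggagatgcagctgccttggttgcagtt

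TGACGT, searched on both strands, is found in 7.51% of 32851 mouse promoters of 300 bases. The full cAMP response element TGACGTCA, which contains TGACGT and is found in 1.79% of them, has no match in the Layn promoter. The ATF4 composite element TGATGNAAT, found in 0.965%, has no match there either. The promoter of Chodl held none of the 3 motifs. A match is a run of letters and not a binding site.

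Library totals ran from 19.7 M to 32.4 M counts, where M stands for mega. Eif2ak4 averaged 13.0, 22.4 and 32.0 CPM (the count per M of the TMM-scaled library total) in Gars mutants with 0, 1 and 2 Gcn2 copies, and 13.6, 22.7 and 31.2 CPM in Gars wild types, so the Gcn2 labels matched the counts. Gars RNA cannot check the Gars labels because its allele changes the protein. All 13 motor neuron markers found in the files were detected in every group. Ependymal markers, 10 of 10, were detected too. Schwann cell markers (9 genes of peripheral myelin) stood apart in 5 libraries, with sums above 200 CPM: 1040 and 2280 CPM in replicates 2 and 4 of the Gcn2+/+ Gars mutants, 287 CPM in replicate 4 of the Gcn2+/- Gars mutants, and 1040 and 1920 CPM in replicates 1 and 3 of the Gcn2+/- Gars wild types. No other library exceeded 125 CPM. Some results are also given without these 5 libraries. The values of Layn, Susd2 and Popdc3 in Gcn2+/+ mice are given with them only. So are the calls of single genes named from the lists or near the 4 genes.

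On the length-corrected TPM scale the genes spanned a wide range of levels. Over the 24 libraries the level averaged 64.1 TPM for Cd24a, 33.0 TPM for Susd2, 7.82 TPM for Layn and 3.01 TPM for Popdc3. The values below are CPM, which can be compared between libraries for 1 gene but not between genes.

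**Figure D1:**
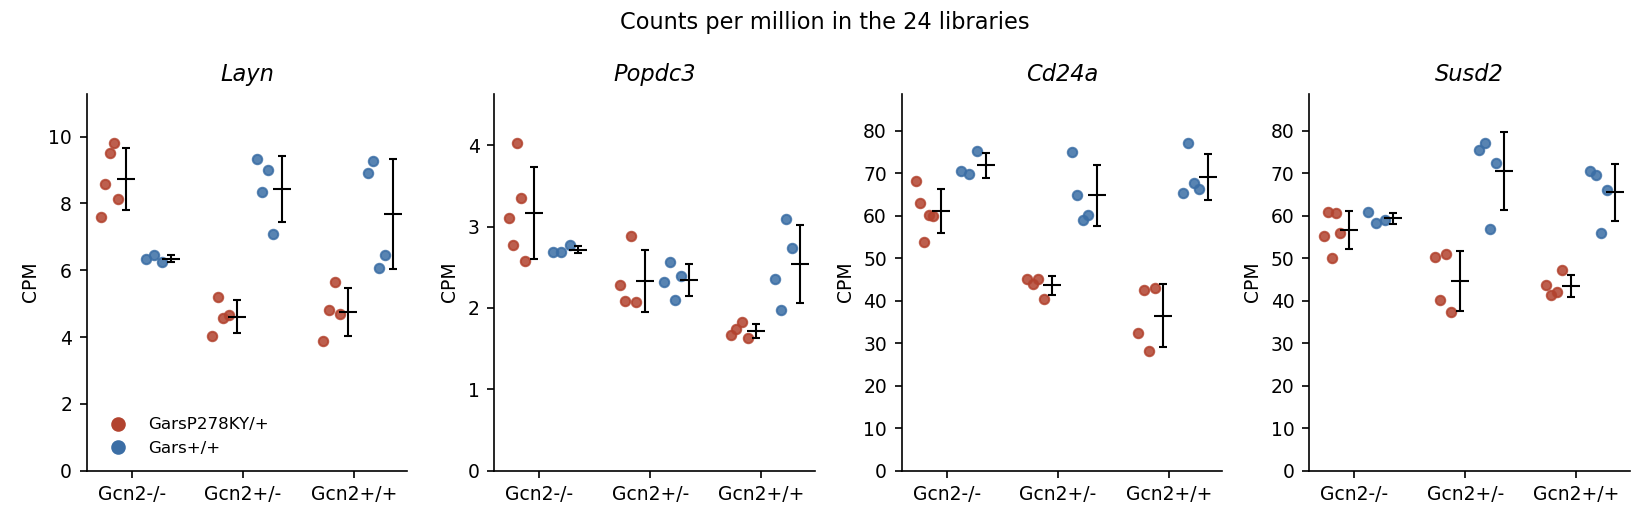
CPM of each gene (vertical axis, starting at 0) in every library, with Gars mutants (red) left of Gars wild types (blue) at each Gcn2 genotype, and bars for the mean and SD of each group. The Gars mutants with 1 or 2 Gcn2 copies form the lowest groups for Layn, Cd24a and Susd2, and for Popdc3 the Gcn2+/+ mutants alone are lowest.

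In mice with 1 Gcn2 copy, Layn, Cd24a and Susd2 were lower in Gars mutants, as the rule asks, and Popdc3 was at a like level in both. Layn stood at 55.0% of its level in Gars wild types, Susd2 at 63.2% and Cd24a at 67.5%. Among all 17409 genes tested, 22 fell (0.126%) and 9 rose (0.0517%) in this comparison. Layn, Cd24a and Susd2 are among the 22, and nothing is read from that, since this comparison is part of what chose them.

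Layn had 4.03, 5.21, 4.57 and 4.65 CPM in the 4 Gcn2+/- Gars mutants, against 9.34, 8.33, 9.0 and 7.08 CPM in the 4 Gcn2+/- Gars wild types. The highest mutant lay below the lowest wild type. The log2 change was -0.86 ± 0.15 (SE).

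Susd2 had 50.3, 40.1, 51.1 and 37.3 CPM in the Gcn2+/- Gars mutants, against 75.4, 77.2, 57.0 and 72.4 CPM in the Gcn2+/- Gars wild types. The groups did not overlap, and wild-type replicate 3 came nearest to the mutants. Its log2 change was -0.66 ± 0.11.

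Cd24a had 45.1, 44.0, 45.1 and 40.3 CPM in the Gcn2+/- Gars mutants, against 74.9, 65.0, 59.0 and 60.2 CPM in the Gcn2+/- Gars wild types, again without overlap. Its log2 change was -0.57 ± 0.11, and it lay between -0.61 and -0.49 when 1 library at a time was left out.

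Popdc3 had 2.28, 2.09, 2.88 and 2.07 CPM in the Gcn2+/- Gars mutants, against 2.32, 2.57, 2.10 and 2.39 CPM in the Gcn2+/- Gars wild types. The ranges overlapped almost wholly. The ratio was 0.985 with a 95% interval of 0.79 to 1.23.

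Over all genes tested, 3.41% had every Gcn2+/- mutant library below every Gcn2+/- wild-type library, as Layn, Cd24a and Susd2 did. That share was not taken for the other comparisons, so nothing is read from separate ranges in them. In a fit of the 8 Gcn2+/- libraries alone the log2 changes were -0.83 for Layn, -0.55 for Cd24a and -0.66 for Susd2. No title number (a number that 1 to 6 libraries share, of unstated meaning) holds both Gcn2+/- mutants and Gcn2+/- wild types, so these 8 libraries alone cannot separate it from Gars genotype. In the fit of all libraries with title number as a replicate block, which links the groups through the others, the log2 changes were -0.92 ± 0.24 for Layn, -0.47 ± 0.13 for Cd24a and -0.68 ± 0.09 for Susd2. Under that block 4 of all genes were called in Gcn2+/- mice, against 31 without it, and Layn and Cd24a were not among the 4.

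The summed CPM of the Schwann cell markers ran from 67.7 to 287 in the Gcn2+/- Gars mutants and from 75.7 to 1920 in the Gcn2+/- Gars wild types. Without the 5 libraries above 200 CPM the log2 changes were -0.74 for Layn, -0.49 for Cd24a and -0.66 for Susd2, and none of the 3 was then among the 4 genes called. In Gcn2+/+ mice the Schwann markers ran from 79.7 to 2280 CPM in Gars mutants and from 69.9 to 114 CPM in Gars wild types. The part of these markers in the differences was not tested.

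With both Gcn2 copies intact, all 4 genes were lower in Gars mutants, by the rule that chose them. In this comparison 73 of all tested genes fell (0.419%) and 37 rose (0.213%), and nothing is read from the 4 genes against those shares. Cd24a differed most. It had 32.4, 42.5, 28.1 and 42.9 CPM in the Gcn2+/+ Gars mutants, against 65.3, 77.2, 67.7 and 66.4 CPM in the Gcn2+/+ Gars wild types, a log2 change of -0.91 ± 0.12. The mutant libraries formed a low pair, replicates 1 and 3, and a high pair, replicates 2 and 4. The high pair is the one with the high Schwann markers, and the low pair shares 1 title number that the high pair lacks. Schwann markers and title number cannot be told apart in these 4 libraries. Without the high libraries the log2 change was -1.18 ± 0.09, with replicates 1 and 3 as the only Gcn2+/+ Gars mutants left.

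Layn had 3.87, 4.8, 5.65 and 4.70 CPM in the Gcn2+/+ Gars mutants, against 8.92, 9.28, 6.07 and 6.45 CPM in the Gcn2+/+ Gars wild types. The wild types fell into a high pair and a low pair, the lower pair close to the highest mutant. The log2 change was -0.68 ± 0.15.

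Susd2 had 43.6, 41.3, 42.0 and 47.2 CPM in the Gcn2+/+ Gars mutants, against 70.6, 69.6, 55.9 and 66.0 CPM in the Gcn2+/+ Gars wild types, a log2 change of -0.60 ± 0.11. Popdc3 had 1.67, 1.74, 1.83 and 1.63 CPM in these mutants, against 2.35, 1.98, 3.09 and 2.74 CPM in these wild types, a log2 change of -0.58 ± 0.17. The 4 mutant libraries of Popdc3 held 43 to 54 counts each, so its level is the least precisely measured of the 4. On the log2(TPM + 0.1) scale its change was -0.31.

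One title number links a Gcn2+/+ Gars mutant (replicate 2) with a Gcn2+/+ Gars wild type (replicate 4). Within it all 4 genes were lower in the mutant. Layn had 4.8 against 6.45 CPM, and Popdc3 had 1.74 against 2.74 CPM. Cd24a had 42.5 against 66.4 CPM, and Susd2 had 41.3 against 66.0 CPM. Both libraries belong to the comparison that chose the genes, and no share over all genes was taken for this pair. Nothing is therefore read from the shared direction. The mutant library is also among those with high Schwann markers.

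**Figure D2:**
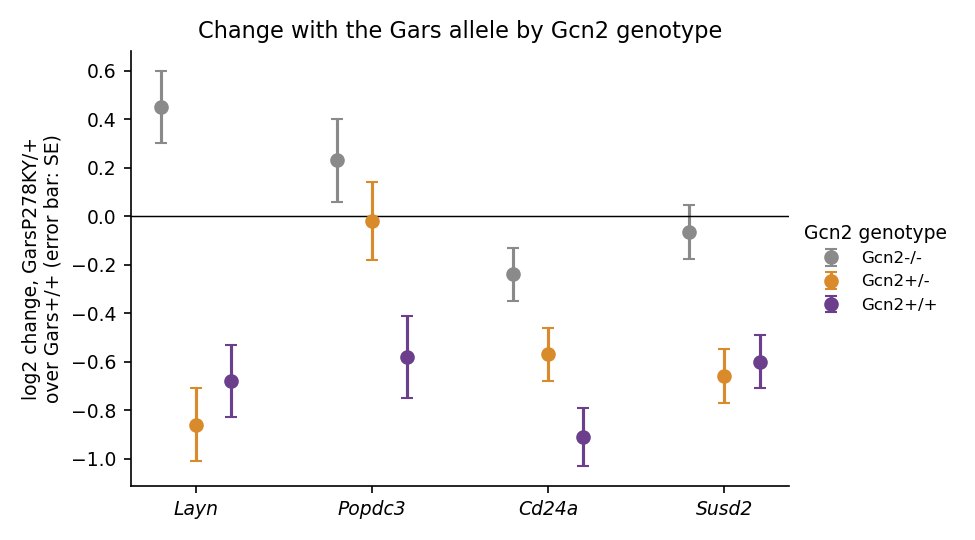
Log2 change of Gars mutants over Gars wild types (vertical axis, points with SE bars) for each gene at 0, 1 and 2 Gcn2 copies. Layn is at 0.45 without Gcn2 and at -0.86 and -0.68 with 1 and 2 copies, Popdc3 stays near 0 at 1 copy, and Cd24a moves step by step to -0.91. All of these contrasts belong to the choice of the genes.

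Without Gcn2 the genes parted ways. Layn had 7.59, 8.57, 9.50, 9.82 and 8.14 CPM in the 5 Gcn2-/- Gars mutants, against 6.33, 6.46 and 6.25 CPM in the 3 Gcn2-/- Gars wild types. The log2 change was 0.45 ± 0.15, opposite in direction to that seen with Gcn2 present. These wild types averaged 6.34 CPM, against 8.44 and 7.68 CPM in Gars wild types with 1 and 2 Gcn2 copies.

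Popdc3 had 3.10, 2.77, 4.03, 3.35 and 2.58 CPM in the Gcn2-/- Gars mutants, against 2.69, 2.69 and 2.77 CPM in the Gcn2-/- Gars wild types. The groups overlapped, with a log2 change of 0.23 ± 0.17. Susd2 had 55.3, 61.0, 50.1, 60.7 and 55.9 CPM in these mutants, against 60.8, 58.2 and 59.1 CPM in these wild types, again with overlap and with a log2 change of -0.066 ± 0.11.

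Cd24a kept a lower level in Gars mutants without Gcn2. It had 68.1, 63.1, 53.9, 60.1 and 60.0 CPM in the Gcn2-/- Gars mutants, against 70.5, 69.9 and 75.3 CPM in the Gcn2-/- Gars wild types. The groups lay close together, and the log2 change was -0.24 ± 0.11.

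Set against Gcn2+/+ Gars mutants, the Gcn2-/- Gars mutants had more RNA of all 4 genes. The log2 differences were 0.89 ± 0.16 for Popdc3, 0.86 ± 0.14 for Layn, 0.74 ± 0.11 for Cd24a and 0.38 ± 0.10 for Susd2. This contrast chose the genes, and 41 of all tested genes rose in it (0.236%) and 45 fell (0.258%). Among Gars wild types the same loss of Gcn2 went with log2 differences of -0.27 ± 0.16 for Layn, 0.082 ± 0.18 for Popdc3, 0.062 ± 0.12 for Cd24a and -0.15 ± 0.12 for Susd2. The difference between the Gars changes without and with Gcn2 was 1.13 ± 0.22 for Layn, 0.81 ± 0.24 for Popdc3, 0.67 ± 0.17 for Cd24a and 0.53 ± 0.16 for Susd2 on the log2 scale. These comparisons share their Gcn2+/+ and Gcn2-/- libraries, so the values are not separate evidence.

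The levels of the 4 genes in Gars mutants by Gcn2 copy are a description, since the choice of the genes used these groups. Layn averaged 8.72 ± 0.928, 4.62 ± 0.487 and 4.76 ± 0.726 CPM (SD, n = 5, 4 and 4) with 0, 1 and 2 copies, and the ranges at 1 and 2 copies overlapped. Susd2 averaged 56.6 ± 4.52, 44.7 ± 7.06 and 43.5 ± 2.62 CPM, and its range at 1 copy overlapped those at 0 and 2 copies. Popdc3 averaged 3.17 ± 0.568, 2.33 ± 0.378 and 1.72 ± 0.086 CPM, and its range at 1 copy overlapped that at 0 but not that at 2 copies. Cd24a averaged 61.0 ± 5.18, 43.6 ± 2.30 and 36.5 ± 7.41 CPM, and the ranges at 1 and 2 copies overlapped. The share of all genes with separate ranges was not taken for these groups, so nothing is read from them. Set against Gcn2+/+ Gars mutants, those with 1 copy differed by 0.45 ± 0.16 on the log2 scale for Popdc3, 0.25 ± 0.11 for Cd24a, 0.04 ± 0.11 for Susd2 and -0.05 ± 0.15 for Layn. For Popdc3 the difference was 0.24 on the log2(TPM + 0.1) scale, and for Cd24a it was 0.56 without the 5 libraries with high Schwann markers. That fit keeps 2 Gcn2+/+ Gars mutants, which share a title number.

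Over all 6 groups, most neighbours in the order of the means overlapped in range. Nothing is read from the gaps between the others, since no share over all genes was taken. For Layn the only neighbours without overlap were the Gcn2-/- Gars wild types at 6.34 ± 0.106 CPM (n = 3) and, below them, the Gcn2+/+ Gars mutants. For Cd24a the gap lay between the Gcn2-/- and the Gcn2+/- Gars mutants, and all 3 wild-type groups, with means of 71.9, 64.8 and 69.2 CPM at 0, 1 and 2 copies, lay above it. For Popdc3 it lay between the Gcn2+/- and the Gcn2+/+ Gars mutants. For Susd2 every pair of neighbours overlapped.

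No difference between the sexes was called for the 4 genes. The male over female log2 change was 0.024 ± 0.09 for Layn, -0.035 ± 0.10 for Popdc3, 0.016 ± 0.07 for Cd24a and -0.012 ± 0.07 for Susd2, each with an adjusted p of 1.0 in the edgeR test. Among all genes 14 were called (0.0804%).

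The 4 genes were set beside lists of related genes. In Gcn2+/- mice 8 of the 13 tested motor neuron markers fell in Gars mutants and 0 rose, with a median log2 change of -0.53 over the list against -0.012 over all genes. Calca, the gene of the peptide CGRP, fell by 1.88 (adjusted p = 2.21e-05 in edgeR's quasi-likelihood test with Benjamini-Hochberg adjustment), the intermediate filament gene Prph by 0.97 (0.000105), the CGRP paralog Calcb by 1.24 (0.00058) and Chat, the enzyme that makes acetylcholine, by 0.53 (0.000933). Chodl fell by 1.19 ± 0.20 (adjusted p = 0.0104). In Gcn2+/+ mice 9 of the 13 fell, with a median of -0.72. The 4 with the smallest p were Calca (-2.25), Calcb (-1.67), Chodl (-2.09) and Chat (-0.55).

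In Gcn2-/- mice 2 of the 13 motor neuron markers fell, Calca and Calcb (adjusted p = 1.97e-05 and 0.0248, edgeR), and these were the 2 of all 17409 genes that fell (0.0115%). The median of the list was -0.058. Among Gars mutants, 6 of the 13 were higher with loss of Gcn2, among them the neurofilament gene Nefh (0.50), Chodl (1.47), the transporter gene Slc10a4 (0.99) and Chat (0.45). Without the 5 libraries with high Schwann markers the counts of the 13 were 3 lower in Gcn2+/- mice, 7 lower in Gcn2+/+ mice, 1 lower in Gcn2-/- mice and 2 higher with loss of Gcn2.

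Chodl, the closest relative of Layn on these lists, averaged 18.3 ± 1.21, 10.8 ± 2.83 and 6.45 ± 1.16 CPM in Gars mutants with 0, 1 and 2 Gcn2 copies, against 22.6 ± 2.14, 25.2 ± 6.28 and 28.6 ± 5.87 CPM in Gars wild types. Without Gcn2 its log2 change was -0.34 ± 0.20 (adjusted p = 0.941, edgeR), where that of Layn was 0.45 ± 0.15.

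Most ATF4 and stress response targets passed no test. Of 28 tested, 3 rose and 0 fell in Gcn2+/- Gars mutants (median 0.26), 7 rose and 0 fell in Gcn2+/+ Gars mutants (median 0.41), and 0 passed the test in Gcn2-/- mice (median 0.18). Among Gars mutants, 7 of the 28 were lower with loss of Gcn2. Without the 5 libraries with high Schwann markers the counts were 1, 5 and 0 higher and 4 lower. The metabolic stress hormone gene Fgf21 had 1.99 ± 0.588 CPM in Gcn2+/- Gars mutants and 0.0127 ± 0.0255 CPM in Gcn2+/- Gars wild types. Both lists had been reported on in these libraries before the 4 genes were chosen and are given here as the setting in which the 4 genes lay.

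**Figure D3:**
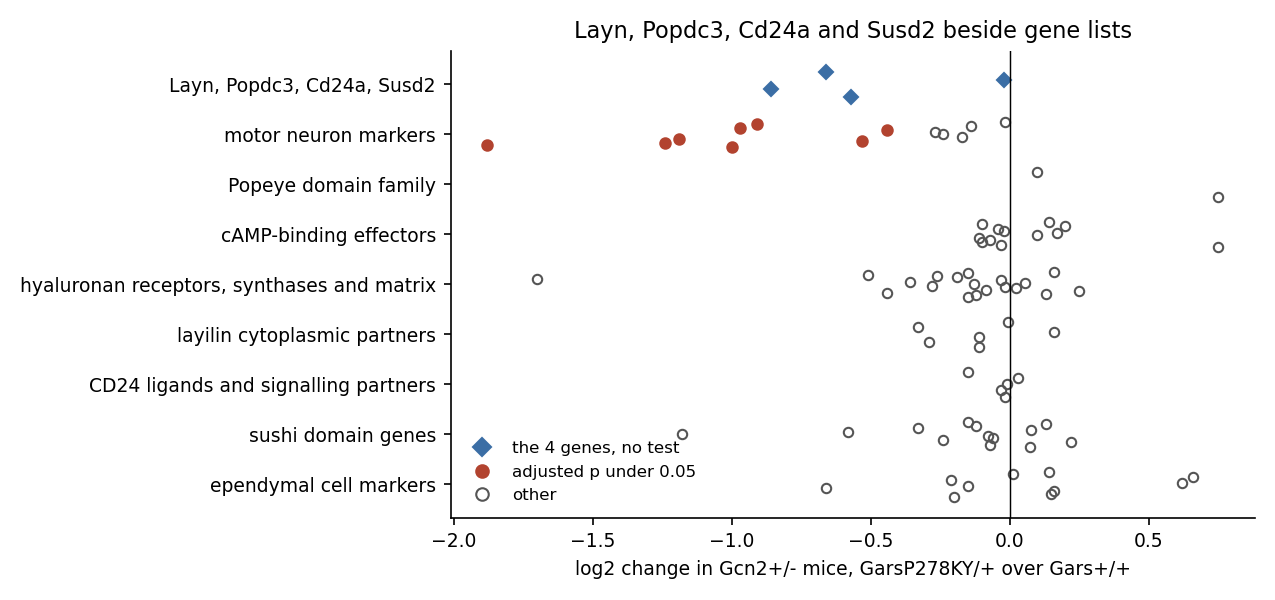
Log2 change of Gars mutants over Gars wild types in Gcn2+/- mice (horizontal axis) for Layn, Popdc3, Cd24a and Susd2 and for every tested gene of 8 lists (rows), with list genes at an edgeR adjusted p below 0.05 filled and the 4 genes as diamonds, with no test. Of the 8 lists, filled points are found among the motor neuron markers only.

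Among the lists of families and partners of the 4 genes, 1 gene passed a test. For Layn, 19 hyaluronan receptors, synthases and matrix genes were tested, and 0 were called in the Gars comparisons at any Gcn2 genotype. Hyal1, a hyaluronidase, had the smallest p in Gcn2+/- mice (log2 change -0.36 ± 0.11, adjusted p = 0.191, edgeR), and the proteoglycan gene Acan had it in Gcn2+/+ mice (-0.37 ± 0.10, adjusted p = 0.0782). That 1 gene was called with loss of Gcn2 in Gars mutants. Cd44, the best known hyaluronan receptor, fell by 0.78 ± 0.17 (adjusted p = 0.0382, edgeR). It averaged 22.1 ± 3.16 CPM (SD, n = 5) in Gcn2-/- Gars mutants, against 39.4 ± 1.98 CPM (n = 4) in Gcn2+/+ Gars mutants. Gars wild types had 22.7 ± 1.03 CPM (n = 3) without Gcn2 and 33.5 ± 8.59 CPM (n = 4) with 2 copies. Its log2 changes with mutant Gars were 0.0027, 0.13 and 0.16 at 0, 1 and 2 copies, without a call. Of 6 genes of talins and ezrin-family linkers that can bind the cytoplasmic tail of layilin, 0 were called, and Tln1 had the smallest p in Gcn2+/- mice (-0.33 ± 0.09, adjusted p = 0.149).

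For Popdc3, both other Popeye genes were tested and 0 were called. Bves, which adjoins Popdc3 at a distance of 0.0173 Mb, averaged 0.824 ± 0.142 CPM in Gcn2+/- Gars mutants and 0.484 ± 0.14 CPM in Gcn2+/- Gars wild types (log2 change 0.75 ± 0.35, adjusted p = 0.331, edgeR), and in Gcn2+/+ mice its log2 change was 0.67 ± 0.36 (adjusted p = 0.343), where Popdc3 had -0.58. Popdc2 stayed below 0.6 CPM in every library. Of 12 genes for cAMP-binding proteins, Bves and Popdc2 among them and the regulatory subunits of protein kinase A, 0 were called, with medians between -0.026 and 0.043 in the 4 comparisons.

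For Cd24a, 5 of 7 ligands and signalling partners passed the filter and 0 were called. The adhesion molecule gene L1cam had the smallest p in Gcn2+/+ mice (0.21 ± 0.07, adjusted p = 0.126, edgeR). For Susd2, 13 sushi domain genes were tested and 0 were called. Csmd3 had the smallest p in Gcn2+/- mice (0.22 ± 0.06, adjusted p = 0.187), and Srpx2, a secreted sushi repeat protein gene, had log2 changes of -0.52, -0.58 and -0.45 at 0, 1 and 2 Gcn2 copies without a call. Ependymal cell markers, a list of 10 for cells lining the central canal, gave 0 calls by edgeR, and so did 8 endothelial, 8 microglia, 8 astrocyte, 7 oligodendrocyte and 5 immature neuron markers, in all 4 comparisons. Sensory ganglion markers differed from these, with 4 of 8 tested. P2rx3, an ATP-gated channel gene of sensory neurons, rose in Gcn2+/- Gars mutants (1.19 ± 0.21, adjusted p = 0.0132, edgeR) and in Gcn2+/+ Gars mutants (1.86 ± 0.21, adjusted p = 5.41e-05). Avil, an actin-binding protein gene of sensory neurons, rose in Gcn2+/+ Gars mutants (2.43 ± 0.43, adjusted p = 0.00706, edgeR). Both fell with loss of Gcn2 in Gars mutants, P2rx3 by 1.71 and Avil by 2.8 (adjusted p = 6.03e-05 and 0.000926, edgeR), and 0 of the 4 were called in Gcn2-/- mice. The summed level of the 8 markers was 10.5 to 12.1 CPM in Gcn2+/- Gars mutants, against 7.33 to 8.71 CPM in Gcn2+/- Gars wild types, and 11.8 to 14.9 CPM in Gcn2+/+ Gars mutants, against 7.79 to 9.35 CPM in Gcn2+/+ Gars wild types, and its part in the differences of the 4 genes was not tested. Meningeal and fibroblast markers, with sums of 63.5 to 189 CPM in Gcn2+/- Gars mutants and 72.8 to 808 CPM in Gcn2+/- Gars wild types, gave 0 calls.

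**Figure D4:**
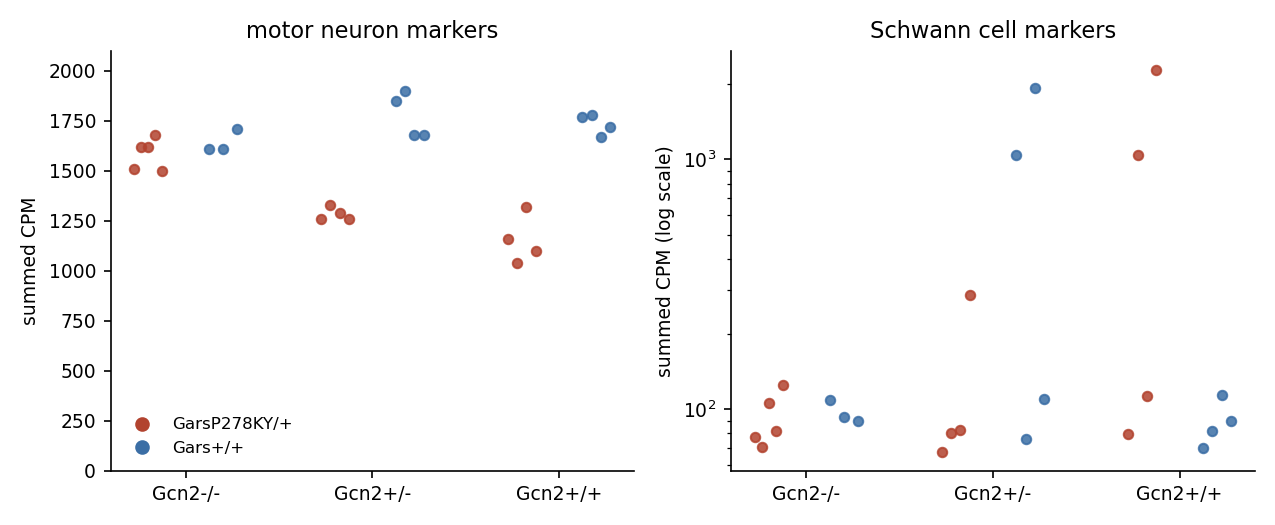
Summed CPM of 13 motor neuron markers (left, linear axis from 0) and of 9 Schwann cell markers (right, log axis) in every library, with Gars mutants (red) left of Gars wild types (blue) at each Gcn2 genotype. Motor neuron sums in Gars mutants run from 1260 to 1330 CPM at 1 Gcn2 copy and from 1040 to 1320 CPM at 2 copies, below all wild types, and 5 libraries stand above 200 CPM for Schwann cell markers. Nefh makes up most of the motor neuron sum, with a median of 718 CPM in Gcn2+/+ Gars mutants and 1050 CPM in Gcn2+/+ Gars wild types.

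Likeness over libraries set the genes apart from each other. Pearson's r was taken on log2 CPM over the 24 libraries among 14913 genes with a mean of at least 1 CPM, as a description, since the libraries share their groups and dissection. The group differences that chose the 4 genes enter this r, so its values are not separate evidence. The genes most like Layn were Slc10a4 (r = 0.853), Prph (0.844) and Chat (0.843), all on the motor neuron list. By Spearman's rho they were Plxdc1, Nefh and Sncg. Those most like Susd2 were Chat (0.864), the neurofilament gene Nefm (0.858) and Dffa (0.854), an inhibitor of a DNA-cutting nuclease. Those most like Cd24a were the potassium channel gene Kcnj14 (0.864), Chodl (0.855) and Hspa12a (0.838). Popdc3 differed from the other 3, with Stk35 (0.824), Osbpl6 (0.791) and Mtmr4 (0.763) as its nearest genes and none of the motor neuron list among them. Stk35 and Osbpl6 lie on chromosome 2, the chromosome of Eif2ak4, and the part of this in their r was not tested. By Spearman's rho the nearest genes were Osbpl6, Ccdc32 and Mtmr4.

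Once the group mean was taken from each library, the 4 genes had little in common. The highest r between any pair was 0.389, for Cd24a and Susd2, where it had been 0.816 before. Layn had an r of 0.607 with the mean log2 CPM of the motor neuron markers within groups, and the other 3 genes had r of -0.074 (Popdc3), -0.274 (Cd24a) and -0.0508 (Susd2). Within groups Cd24a had an r of -0.542 with the astrocyte markers and 0.497 with the skeletal muscle markers. Its r was 0.44 with the immature neuron, 0.436 with the meningeal and fibroblast, 0.411 with the ependymal and 0.408 with the Schwann cell markers. Popdc3 had -0.631 with the pericyte and smooth muscle markers, and Layn had 0.442 with the sensory ganglion markers.

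Susd2 varied within groups together with other genes of its own chromosome. The 3 genes most like it after the group means were taken off were Nrbf2 (r = 0.906), Ddt (0.896) and Uqcr11 (0.890), an autophagy regulator, a MIF-like tautomerase and a subunit of respiratory complex III. All 3 lie on chromosome 10, Nrbf2 at 67266689 to 67285305, Ddt at 75771230 to 75773414 and Uqcr11 at 80402997 to 80406830 on GRCm38. Of the 50 genes most like Susd2 within groups, 28 (56.0%) were on chromosome 10, which holds 4.63% of the genes compared, and so were 11 of the 50 least like it. Reep6, 4.69 Mb from Susd2, had the lowest r on the chromosome, at -0.84.

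The same count did not stand out for the other genes. Of the 50 most like Popdc3 within groups 1 was on chromosome 10, of those most like Cd24a 2 were, and of those most like Layn 2 were on chromosome 9, which holds 5.59% of the genes compared. What the chromosome 10 genes share with Susd2 within groups was not tested. The 3 genes nearest Susd2 in this measure were themselves not called in Gcn2+/- mice, with log2 changes of -0.12 ± 0.17 for Nrbf2, -0.12 ± 0.15 for Ddt and -0.13 ± 0.10 for Uqcr11. With their mean log2 CPM as a covariate, chosen after these values were seen, the log2 change of Susd2 was -0.57 ± 0.05 in Gcn2+/- mice and -0.54 ± 0.05 in Gcn2+/+ mice, -0.18 ± 0.05 in Gcn2-/- mice, and 0.28 ± 0.05 for loss of Gcn2 among Gars mutants.

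**Figure D5:**
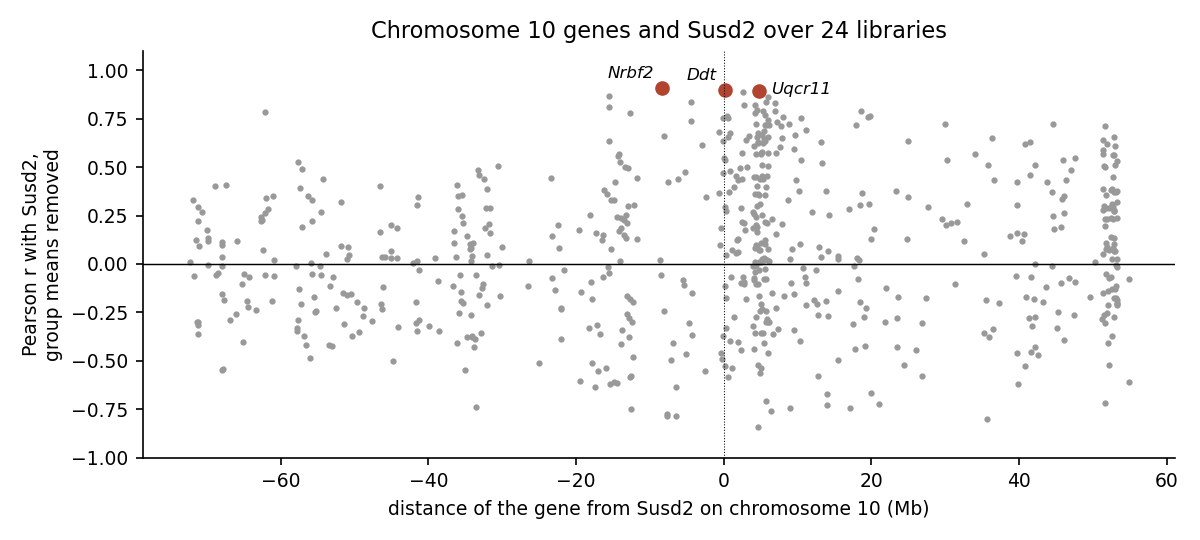
Pearson r with Susd2 over 24 libraries after the group means were removed (vertical axis) for each chromosome 10 gene with a mean of at least 1 CPM, against its distance from Susd2 (horizontal axis, Mb). Nrbf2, Ddt and Uqcr11 (red) have r of 0.906, 0.896 and 0.890, and Reep6 is lowest at -0.84.

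Few neighbours within 5 Mb changed. Of the 44 genes tested around Popdc3 and the 56 around Cd24a, 0 were called in Gcn2+/- mice, in Gcn2+/+ mice or with loss of Gcn2 in Gars mutants, with smallest adjusted p of 0.244, 0.122 and 0.197 for both windows. Of 79 around Layn, 2 fell in Gcn2+/+ Gars mutants, the motor neuron transcription factor gene Isl2 (-0.93 ± 0.20, adjusted p = 0.0386, edgeR) and Rab39 (-0.87 ± 0.19, adjusted p = 0.0417). Of 141 around Susd2, Midn, a regulator of protein degradation, fell in Gcn2+/- Gars mutants (-0.38 ± 0.07, adjusted p = 0.0331), and Grin3b, a glutamate receptor subunit gene, fell in Gcn2+/+ Gars mutants (-0.68 ± 0.11, adjusted p = 0.0031) and was higher in Gcn2-/- than in Gcn2+/+ Gars mutants (0.71 ± 0.10, adjusted p = 0.00116).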

How the data were processed

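RNA of 24 spinal cords was sequenced as poly(A)-selected, stranded libraries, per the labels' protocols, which name 2 kits but assign neither to a library. The files, as deposited, hold RSEM expected counts and TPM per gene; the submitters' processing notes name RSEM 1.2.12 and Bowtie2 2.2.0, and the build is not given in the sources used here. Of 38924 genes, 37607 matched GENCODE M21 by identifier. The deposited expected counts were rounded, scaled by TMM and tested with edgeR 4.0.16 (quasi-likelihood F test, R 4.3.3) in 1 fit of all libraries with genotype group and sex. Adjusted p values are Benjamini-Hochberg over 17409 genes, with calls below 0.05. Its common coefficient of biological variation came to 0.225. The fit was tested on simulated counts. The labels number each library separately but do not say in words that each is 1 animal, and if any share an animal, p values measure technical spread. Alternatives used DESeq2 1.42.0 and, on the authors' TPM as log2(TPM + 0.1), limma 3.58.1. The 4 genes, the gene lists and the tests were chosen with earlier results of these data known. The planned test of the 4 genes in Gcn2+/- mice is given as a description, because the rule that chose them compared all 6 genotypes. Named genes are the 4 themselves, up to 4 genes per list and per window with the smallest p, and the 3 most alike by r. Reep6, and the Chodl levels and promoter motifs, were added after values were seen.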

Additional observations from a re-analysis of the deposited data

Results flagged for a closer look

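Layn was the only one of the 4 genes for which every Gars mutant library lay above every Gars wild-type library at one Gcn2 genotype and below it at the others. The share of all genes with such a pattern was not taken. Its log2 change of Gars mutants over Gars wild types was 0.45 in Gcn2-/- mice, -0.86 in Gcn2+/- mice and -0.68 in Gcn2+/+ mice. The difference between these changes was not tested, because these contrasts chose the gene. In 20 groups of 4 or 5 libraries over the 4 genes, no single value stood apart from its group by Dixon's criterion, which chance meets in about 1 group in 20.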

How the results depend on the processing

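In Gcn2+/- mice the log2 change of Layn was -0.83 with the 2 groups alone, -0.92 with title number as a replicate block, -0.79 with a Schwann marker covariate and -0.74 without the 5 libraries with high Schwann markers. That of Cd24a was -0.55, -0.47, -0.47 and -0.49 under the same 4, and -0.53 with the chromosome 10 covariate. That of Susd2 was -0.66 with the 2 groups alone and -0.66 without the high libraries. Each of these took the gene off the list of called genes. Popdc3 was at 0.0097 under the block. Called genes numbered 31, against 186 with DESeq2, 5 with the 2 groups alone, 4 under the block, 17 with the Schwann covariate and 4 without the high libraries. The cause was not tested. Leaving out 1 library at a time gave -0.95 to -0.78 for Layn, -0.75 to -0.58 for Susd2 and -0.13 to 0.038 for Popdc3. For Cd24a it gave -0.61 to -0.49, with the gene on the list of called genes in 10 of 24. No support is read from a call of the 4 genes, since this comparison is part of what chose them. Called genes then numbered 18 to 66. The count was 66 without Gcn2+/- mutant 1, 20 without Gcn2+/- mutant 3 or 4, and 18 without Gcn2+/- wild type 2 or 4. Cd24a left the list (-0.60 to -0.49) without Gcn2+/- mutants 1, 2, 3 or 4, Gcn2+/- wild types 1, 2 or 4, Gcn2-/- wild types 1, 2 or 3, Gcn2-/- mutants 4 or 5, or Gcn2+/+ wild types 3 or 4. In Gcn2+/+ mice 110 genes were called, against 658 with DESeq2, 72 without a filter on low counts, 203 without TMM, 11 with the 2 groups alone, 57 with the 4 listed genotypes, 201 without the sex term, 40 with the Schwann covariate, 36 without the high libraries and 47 to 599 with 1 library left out (47 without Gcn2+/+ wild type 3, 599 without Gcn2+/+ wild type 1). In Gcn2-/- mice 2 were called, against 26 with DESeq2, 1 under 5 other settings and 1 to 3 with 1 library left out. For loss of Gcn2 in mutants 86 were called, against 21 to 249 under the alternatives and 47 to 110 with 1 library left out. Cd24a was at -0.36 and Susd2 at -0.20 in Gcn2-/- mice under the block, and Susd2 at -0.18 with the chromosome 10 covariate. Popdc3 was at -0.31 in Gcn2+/+ mice on TPM, Cd24a at -1.18 there and at 1.02 for Gcn2 loss in mutants without the high libraries, and Susd2 at 0.28 for that loss with the chromosome 10 covariate. Both Cd24a values rest on the 2 Gcn2+/+ Gars mutants left, which share a title number. Sex changes crossed 0 for Layn (-0.038 with the 4 listed genotypes, -0.018 under the block), Popdc3 (0.0054) and Cd24a (-0.026) with those genotypes, and Susd2 (0.003 on TPM, 0.012 with the chromosome 10 covariate). Their ranges with 1 library left out were -0.031 to 0.088 for Layn, -0.087 to 0.0094 for Popdc3, -0.0082 to 0.053 for Cd24a and -0.048 to 0.017 for Susd2. The libraries left out for high Schwann markers and the chromosome 10 covariate were chosen after seeing the data. Libraries of different groups that share a title number deviated from their group means together, with a median r of 0.202 over 32 pairs. The median was -0.0434 over the 207 other pairs. Of the 32 pairs 23 lay above 0.1, and of the 207 pairs 56 did, as a hint from the data and not the design. By Spearman's rho over all 24 libraries, the 3 genes nearest each gene kept none of the 3 by r for Layn (Plxdc1, Nefh and Sncg instead), Osbpl6 and Mtmr4 but not Stk35 for Popdc3, Hspa12a but not Kcnj14 or Chodl for Cd24a, and Nefm and Dffa but not Chat for Susd2. Within groups, Nrbf2 and Ddt but not Uqcr11 stayed for Susd2.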
